A study of Drosophila melanogaster with 64 samples.

Results

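The genes described here are 38 Drosophila melanogaster genes whose products act in the nucleolus, or just after it, in the making of ribosomes. They were chosen by gene symbol, current or older, and all 38 were found among the 17752 genes of the count table: 36 by the symbol in the annotation and 2 by an older name, CG4038 (the fly Gar1) and CG7637 (the fly Nop10). In the release 6 genome they lie on chromosome arms 2L (8 genes), 2R (12), 3L (6), 3R (8) and X (4), so they are not a genomic cluster. l(1)G0020 (X:8716713-8720277, minus strand) and CG1789 (X:8720520-8721503, plus strand) are divergent neighbours. The choice used gene names and no measured value of its own, but it was made with earlier results of these data known.

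RNA was sequenced from females of the LHM strain that were 3 to 8 days old and unmated, 6 h postmating or 24 h postmating. The female reproductive tract (FRT) was dissected into the bursa, oviduct and seminal receptacle, here called epithelial, and the spermathecae and parovaria, here called glandular, and the FRT-associated fat body was taken as a further tissue. Unmated whole females without the lower FRT, which hold the ovaries, served as a reference. Each of the 62 tissue libraries and 2 whole female libraries was made from pooled females, so replicates are pools and differences among single females cannot be seen. Groups held 2 to 4 libraries, sequenced in 2 runs of 26 and 38 libraries.

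Ribosomes are built in the nucleolus. RNA polymerase I transcribes the ribosomal RNA precursor there, small nucleolar ribonucleoproteins (snoRNPs) of the box C/D kind methylate it, those of the box H/ACA kind convert uridines to pseudouridine, and a long series of helicases, GTPases and assembly factors trims the precursor and adds ribosomal proteins to the small and large subunits. In many animals these genes are transcribed together, and the growth regulator Myc is a known activator of them in flies. The bursa receives the ejaculate and later holds the egg before it is laid.

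Levels are CPM after TMM scaling (counts scaled to a common library size), which corrects each library for its depth and for a few very abundant transcripts. Library totals ran from 12177864 to 26860149 counts with a median of 24545411.5. Mitochondrial transcripts took 18.9 to 57.2% of the counts in the bursa at 6 h, the widest range of any bursa group. The 2 run 1 libraries were at 28.3 and 18.9% and the 2 run 2 libraries at 57.2 and 55.6%, against 32.3 to 38.5% in unmated bursa. Of the markers of other cell types, 4 of 19 germline genes and 0 of 17 eggshell genes were expressed in the unmated bursa (above 2 CPM before TMM scaling in at least 2 libraries), and 0 of 15 testis and 1 of 15 male accessory gland genes, whereas 18 of 19 germline and 17 of 17 eggshell genes were expressed in the whole female. At 6 h the summed male accessory gland markers were 3.19 to 11.5 CPM in the bursa, with 8 of the 15 genes at 0, against 4.31 to 7.38 CPM in unmated bursa. All 12 muscle markers and 11 of 13 fat body markers were expressed in the bursa at every time point, and 0 of either list were called at 6 h by edgeR (median log2 fold changes -0.02 and 0.07), with summed fat body levels of 6015 to 9990 CPM unmated and 2839 to 10890 CPM at 6 h. Neuron markers were lower in every 6 h bursa library (11.1 to 21.9 CPM summed over 11 genes, 2 of them expressed) than in unmated bursa (26.6 to 38.4 CPM, 4 expressed), and their part in the results below was not tested. In these bulk libraries fewer cells of a type and less RNA per cell cannot be told apart.

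The main question was whether these genes changed after mating, in which tissues, and for how long. In the bursa 10 of the 38 rose at 6 h, 27 others had positive changes that were not called, and levels at 24 h were near those of unmated females. A gene was called when edgeR's quasi-likelihood test gave a Bonferroni-adjusted p of at most 0.01 over all genes tested in the tissue. At 6 h, 10 of the 38 genes were called higher (Fib, Nop56, nop5, Nop60B, NHP2, l(1)G0020, wcd, CG6724, CG1542 and CG6712) and 0 lower, where 1.03% of all 7983 genes tested were called higher. The median log2 fold change was 1.44 over the 38 genes and -0.016 over all genes. Fitted changes were positive for 37 of the 38, and at least 1 on the log2 scale for 30. With a Benjamini-Hochberg adjusted p of at most 0.05 in its place, 36 of the 38 were higher, where 13.9% of all genes were. Every unmated library lay below every 6 h library for 33 of the 38 genes, which held for 13.7% of all genes. The number of calls depended on single libraries while the size of the changes did not: leaving out 1 library kept the median between 1.43 and 1.58 with 37 positive values, but gave 2 calls without unmated run 1 library 1 or unmated run 2 library 2, 4 without unmated run 1 library 2, 6 without 6 h run 1 library 2 or 24 h run 1 library 1, and 7 or 8 without any other.

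Among the box C/D snoRNP proteins, Fib (fibrillarin, the methyltransferase of the particle; 2R:23072909-23074725) showed the largest change of all 38 genes. In the bursa its level was 8.40, 6.93, 12.4 and 10.6 CPM in the 4 unmated libraries, 62.5, 83.1, 123 and 112 CPM at 6 h, and 11.1, 14.4, 18.3 and 9.99 CPM at 24 h, where run 1 libraries are given before run 2 libraries throughout. The 6 h libraries thus stood far above all 8 others, and the ratio of mean levels to unmated was 9.94. The fitted log2 fold change was 3.32 ± 0.30 (SE, n = 4 and 4 libraries, adjusted p = 0.0011 by edgeR). Nop56, a core protein of the same particle, had 12.3, 13.5, 20.6 and 17.1 CPM unmated, 73.1, 89.3, 110 and 90.5 CPM at 6 h, and 17.1, 17.9, 25.5 and 14.5 CPM at 24 h. Its log2 fold change at 6 h was 2.51 ± 0.24 (adjusted p = 0.0016). The partner of Nop56 in the particle is nop5 (Nop58 in yeast), with 6.36, 6.93, 9.52 and 6.98 CPM unmated, 50.5, 56.1, 48.2 and 35.5 CPM at 6 h, and 10.9, 8.61, 9.92 and 7.66 CPM at 24 h. Its log2 fold change was 2.67 ± 0.19 (adjusted p = 6.49e-05), the smallest p of the 38 genes. In all 3 genes the 6 h group did not overlap either of the others, and for nop5 run 1 was not below run 2 at 6 h as it was for Fib.

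The 4 box H/ACA proteins all had positive changes, and 2 of them were called. Nop60B (dyskerin in humans, the pseudouridine synthase; 2R:24174877-24186343) had 12.99, 13.8, 18.2 and 14.6 CPM in unmated bursa, 104, 122, 95.7 and 89.5 CPM at 6 h, and 23.2, 22.5, 14.3 and 14.6 CPM at 24 h. Its log2 fold change of 2.78 ± 0.20 (adjusted p = 8.37e-05) was the second largest. Exons of Nop60B overlap snoRNA genes and a transposon insertion over 15.3% of their length, so part of its counts may belong to those features. NHP2 had 9.99, 9.40, 15.1 and 11.3 CPM unmated and 36.2, 46.1, 49.1 and 51.6 CPM at 6 h, with 12.5, 11.8, 11.3 and 12.8 CPM at 24 h, and a log2 fold change of 2.00 ± 0.18 (adjusted p = 0.0010). Both remaining subunits missed the threshold although their groups did not overlap either. CG4038, the Gar1 subunit, had 6.36, 5.82, 5.90 and 5.45 CPM unmated, 14.7, 15.3, 18.5 and 16.04 CPM at 6 h and 5.55, 6.59, 7.66 and 4.95 CPM at 24 h, with a log2 fold change of 1.45 ± 0.17 (adjusted p = 0.015). CG7637, the small Nop10 subunit, had 8.24, 6.35, 13.05 and 11.1 CPM unmated, 33.2, 37.9, 57.7 and 61.8 CPM at 6 h and 10.1, 11.1, 14.2 and 13.02 CPM at 24 h, with a log2 fold change of 2.30 ± 0.28 (adjusted p = 0.025). It shares 31.6% of its exon length with CG12935, and how reads were split between them is not known. Nopp140, a chaperone of both kinds of snoRNP, had a log2 fold change of 1.68 ± 0.28 (adjusted p = 0.49), with 4.95 to 8.93 CPM unmated and 33.2, 28.2, 21.8 and 11.5 CPM at 6 h.

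**Figure D1:**
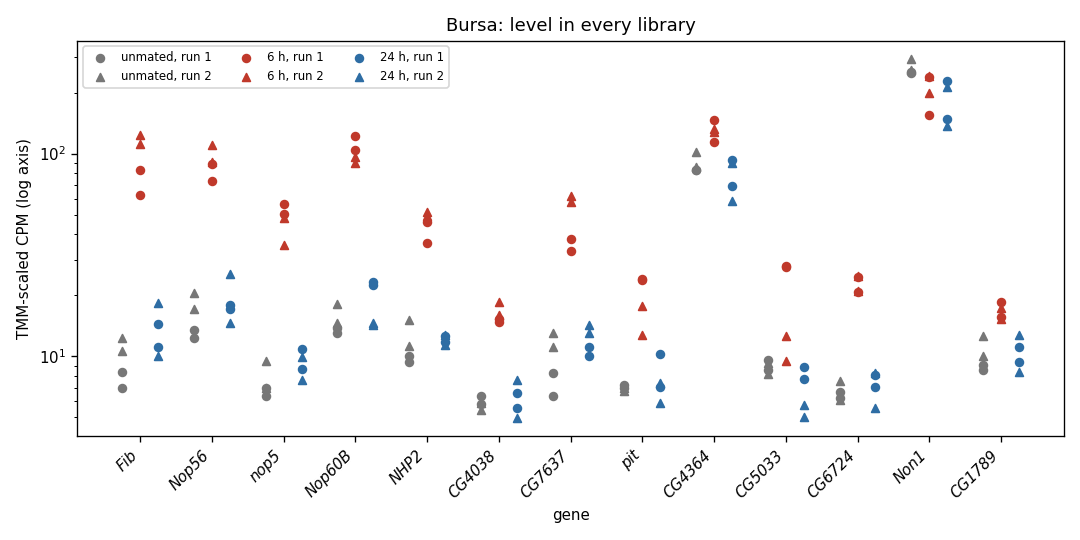
TMM-scaled CPM on a log axis in every bursa library for 13 genes, grey for unmated, red for 6 h and blue for 24 h, with circles for run 1 and triangles for run 2. The 6 h points of Fib lie at 62.5 to 123 CPM, above all 8 other libraries, whereas those of Non1 lie at 155 to 241 CPM, below the unmated libraries.

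The PeBoW complex (Pescadillo, BOP1 and WDR12 in mammals) is needed for the large subunit, and the fitted changes of its 3 fly genes were of unequal size, which was not tested between them. CG6724, the WDR12 gene, was called: it had 6.68, 6.211, 7.54 and 6.09 CPM unmated, 20.7, 24.7, 24.9 and 20.9 CPM at 6 h and 7.02, 8.10, 8.28 and 5.58 CPM at 24 h, a log2 fold change of 1.77 ± 0.16 (adjusted p = 0.0011). CG5033, the BOP1 gene, had 8.54, 9.62, 8.13 and 9.30 CPM unmated and 27.7, 27.9, 12.7 and 9.46 CPM at 6 h, with 8.86, 7.70, 5.02 and 5.74 CPM at 24 h. Its run 2 libraries were close to unmated, 1 of them inside the unmated range, and the log2 fold change was 1.11 ± 0.31 (adjusted p = 1). CG4364, the Pescadillo gene, was already abundant, with 82.7, 83.0, 102 and 85.9 CPM unmated, 113, 146, 132 and 128 CPM at 6 h and 69.1, 92.5, 89.3 and 58.3 CPM at 24 h. Its groups at 6 h and unmated did not overlap, yet its log2 fold change of 0.55 ± 0.17 (adjusted p = 1) was the smallest positive value of the 38. A helicase of large subunit assembly, pit (DDX18 in humans, Has1 in yeast), had 7.23, 6.93, 6.73 and 6.98 CPM unmated, 23.9, 24.1, 17.8 and 12.8 CPM at 6 h and 10.3, 7.06, 5.86 and 7.41 CPM at 24 h, with a log2 fold change of 1.48 ± 0.21 (adjusted p = 0.11). The large subunit factor CG1542 (EBP2 in yeast) was called, going from 7.93 to 12.7 CPM unmated to 28.8 to 46.04 CPM at 6 h, a log2 fold change of 2.00 ± 0.21 (adjusted p = 0.0059).

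Factors of the small subunit and of RNA modification had positive changes as well, and 2 of those with a role given here were called, l(1)G0020 and wcd. l(1)G0020, the fly NAT10, an RNA cytidine acetyltransferase, was low but called: 1.69, 1.30, 1.54 and 1.47 CPM unmated, 9.43, 10.4, 6.45 and 5.42 CPM at 6 h and 1.17 to 1.98 CPM at 24 h, a log2 fold change of 2.39 ± 0.25 (adjusted p = 0.0042). The divergent neighbour of l(1)G0020, CG1789 (UTP11 in yeast), was not called, with 9.03, 8.51, 12.6 and 10.1 CPM unmated, 15.7, 18.4, 17.3 and 15.2 CPM at 6 h, 11.1, 9.38, 8.40 and 12.7 CPM at 24 h and a log2 fold change of 0.72 ± 0.17 (adjusted p = 1). wcd (UTP18 in yeast) had 3.55 to 4.56 CPM unmated and 11.7, 15.7, 12.1 and 11.7 CPM at 6 h, a log2 fold change of 1.62 ± 0.18 that only just passed the threshold (adjusted p = 0.0099). CG6712, for which no role is given here, had 6.98 to 9.11 CPM unmated and 22.8 to 33.9 CPM at 6 h, a log2 fold change of 1.82 ± 0.19 (adjusted p = 0.0060). The other small subunit genes were not called: the log2 fold change was 1.63 for Bka (FCF1 in yeast), 1.70 for CG3527 (EMG1 in yeast), 1.30 for CG8064 (UTP12 in yeast), 1.26 for l(3)72Dn (UTP4 in yeast) and 1.10 for CG7728 (BMS1 in yeast).

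The remaining genes that were not called in the bursa at 6 h all had positive values but for Non1. Log2 fold changes were 1.68 for CG13096, 1.67 for mbm (a nucleolar protein of neural stem cells), 1.55 for Nnp-1 (Rrp1 in yeast), 1.44 for CG8545 (the NOP2 methyltransferase of humans and yeast), 1.42 for vito (NOL12 in humans), 1.41 for CG12325, 1.40 for CG1671, 1.39 for Non3 (Rpf2 in yeast) and 1.39 for FBgn0022288 (GRWD1 in humans). They were 1.10 for CG9799, 0.99 for Ns3 (an LSG1-like GTPase that acts late, in the cytoplasm), 0.91 for Mys45A (SDA1 in yeast), 0.91 for CG12301, 0.86 for CG11920 and 0.82 for Ns1 (nucleostemin in mammals). Of these 15 genes, CG12301 alone did not pass the Benjamini-Hochberg threshold (adjusted p = 0.096). At 6 h 4 genes overlapped the unmated range, l(3)72Dn, CG12301, CG8545 and CG5033.

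Non1, the GTPase named NOG1 in yeast, which acts on the large subunit precursor, was the single gene of the 38 with a negative value in the bursa at 6 h. It was the most abundant of the 38 in the bursa, with 250, 252, 294 and 257 CPM unmated, 155, 238, 241 and 199 CPM at 6 h and 147, 229, 213 and 137 CPM at 24 h. Its 6 h libraries all lay below its unmated libraries, with a log2 fold change of -0.34 ± 0.21 (adjusted p = 1). The fitted value for Non1 at 6 h was negative in each of the other 5 tissues too: -1.05 ± 0.25 in spermathecae, -0.62 ± 0.24 in seminal receptacle, -0.54 ± 0.26 in parovaria, -0.33 ± 0.22 in oviduct and -0.03 ± 0.27 in fat body. In no tissue was it called at the Bonferroni threshold. The spermathecae value passed the Benjamini-Hochberg threshold (adjusted p = 0.039), as the single gene of the 38 that did so there, where 1.46% of all genes were lower by that rule: Non1 was at 363, 459, 378 and 333 CPM unmated, 156, 219, 194 and 162 CPM at 6 h and 296, 591, 283 and 236 CPM at 24 h.

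**Figure D2:**
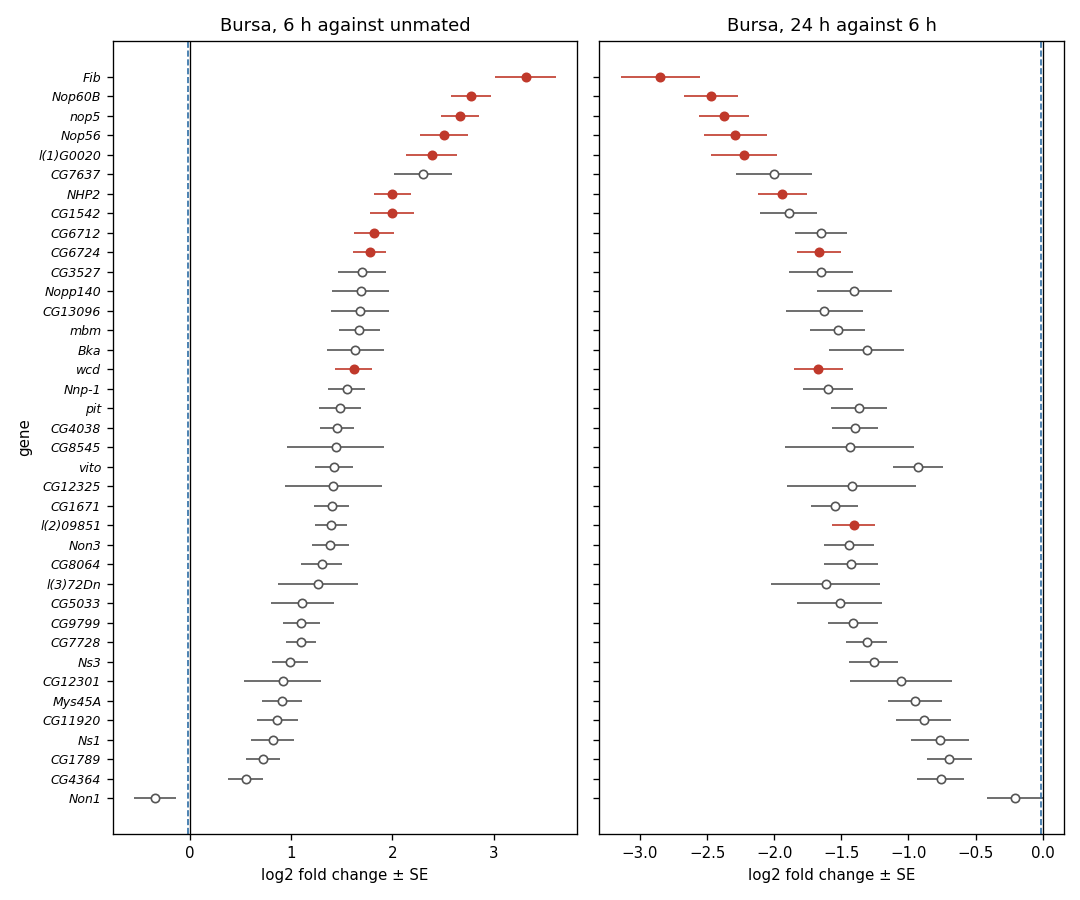
Fitted log2 fold change ± SE in the bursa for each of the 38 genes at 6 h against unmated (left) and 24 h against 6 h (right), ordered by the left panel, with filled red points for called genes and a dashed line at the median of all genes. Values at 6 h run from -0.34 (Non1) to 3.32 (Fib), and all 38 values are below 0 from 6 h to 24 h.

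The rise in the bursa did not last. From 6 h to 24 h, 9 genes were called lower (Fib, Nop56, nop5, Nop60B, NHP2, FBgn0022288, l(1)G0020, wcd and CG6724) and 0 higher, where 0.601% of all genes were called lower. The median change was -1.44 over the 38 genes and -0.016 over all genes, and all 38 values were negative. The 24 h group lay wholly below the 6 h group for 34 genes, which held for 9.26% of all genes. CG1542 and CG6712 were called at 6 h and not here, with log2 fold changes of -1.89 ± 0.21 (adjusted p = 0.010) and -1.65 ± 0.19 (adjusted p = 0.016), while FBgn0022288, called here with -1.41 ± 0.16 (adjusted p = 0.009996), had just missed the threshold at 6 h (adjusted p = 0.011). Leaving out 1 library gave 2 calls without 24 h run 1 library 1, 3 without 24 h run 1 library 2, 24 h run 2 library 2, 6 h run 1 library 2 or 6 h run 2 library 1, 4 without unmated run 2 library 2, 5 without unmated run 1 library 1, and 6 or 7 otherwise. The 2 comparisons share the 6 h libraries. Between 24 h and unmated, 0 of the 38 genes were called by edgeR or by DESeq2, and the median was 0.04, with values from -0.55 (Non1) to 0.49 (vito). An unadjusted p under 0.05 was found for 2 of them, where 327 of all 7983 genes were higher and 277 lower by that rule.

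The 4 bursa libraries at 6 h differed among themselves by run and by the length of the gene. Longer genes were lower in run 2 than in run 1, and shorter genes were higher. CG8545 (2949 exonic bases) was at 20.7 and 15.4 CPM in run 1 and 3.77 and 5.83 CPM in run 2, whereas CG7637 (316 bases) was at 33.2 and 37.9 CPM and at 57.7 and 61.8 CPM. Across the 38 genes the log2 ratio of the run 2 mean to the run 1 mean correlated with exon length (Spearman's rho = -0.75, Pearson's r = -0.71 with log2 length). This correlation is across genes of the same 4 libraries and is given as a description. It was -0.55 (rho) in unmated bursa and -0.68 at 24 h, and over all genes above 2 CPM in both runs it was -0.46 at 6 h (6699 genes), so it was not particular to these genes. Every bursa group held 2 libraries of each run. Within run 1 alone the median log2 fold change at 6 h was 1.72 and 37 of 38 values were positive, and within run 2 alone it was 1.30 and 36 of 38 were positive, but with 2 libraries per group 0 genes were called in either run (37 and 29 with an unadjusted p under 0.05). The share of all genes under that threshold within a single run is not given here. The part of run, RNA quality or mitochondrial share in single values was not tested.

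**Figure D3:**
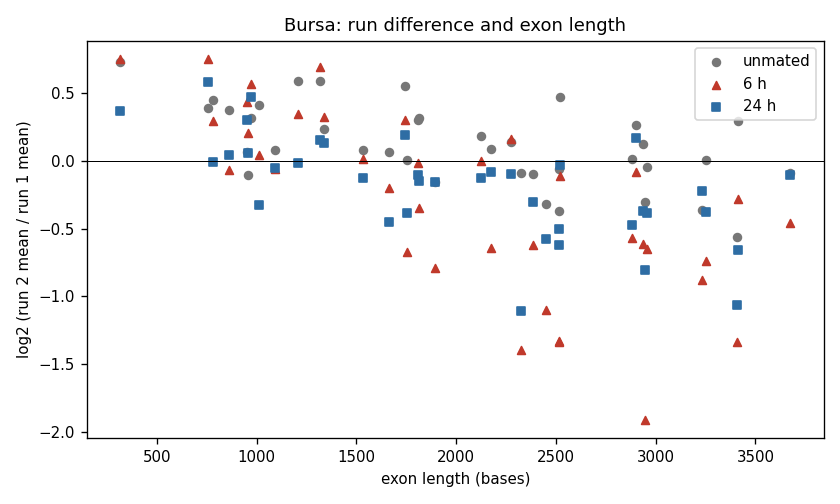
Log2 ratio of the mean level in run 2 to that in run 1 for each of the 38 genes in the bursa, against exon length in bases, for unmated (grey circles), 6 h (red triangles) and 24 h (blue squares). At 6 h the ratio falls from 0.75 for CG7637, the shortest gene, to -1.91 for CG8545.

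In the other epithelial tissues most of the genes had positive fitted changes at 6 h, with lower medians than in the bursa, and 0 passed the Bonferroni threshold. In the oviduct the median was 0.91 and 37 of 38 values were positive. By edgeR 0 genes were called (29 had an unadjusted p under 0.05, and DESeq2 called 8), where edgeR called 0.0256% of all 7814 genes higher, 10.3% had an unadjusted p under 0.05 and a positive change, and DESeq2 called 1.61%. By the Benjamini-Hochberg rule 9 were higher, where 1.83% of all genes were: Fib, Nop56, nop5, NHP2, wcd, vito, Ns1, CG1789 and CG6724. Fib was at 13.4, 10.7 and 11.5 CPM in the 3 unmated oviduct libraries, 51.1 and 46.5 CPM in the 2 libraries at 6 h and 10.3, 14.7 and 10.2 CPM at 24 h, a log2 fold change of 2.06 ± 0.24 (adjusted p = 0.23). nop5 came nearest to a call (1.78 ± 0.16, adjusted p = 0.037), going from 10.8, 12.3 and 12.0 CPM to 40.9 and 37.7 CPM. Both 6 h libraries lay above all 3 unmated libraries for 37 of the 38 genes, where 29.2% of all genes did so, and all 24 h libraries lay below both for 36 genes, where 20.0% of all genes did. No run 1 library was made of the oviduct at 6 h. One of the 2 oviduct libraries at 6 h, and the run 1 library at 24 h, held eggshell transcripts summing to 742.7 and 197.3 CPM against 3.32 to 23.98 CPM in the other 6. The summed levels of other marker lists were also apart between unmated and 6 h oviduct without overlap: germline 340.7 to 552.7 and 113.8 to 176.7 CPM (4 of 19 genes expressed), hemocyte 1073 to 1138 and 754.3 to 791.1 CPM (8 of 9), neuron 28.6 to 40.9 and 15.1 to 20.6 CPM (2 of 11) and male accessory gland 5.04 to 7.56 and 9.20 to 9.42 CPM (1 of 15). The part of all of these in the oviduct values was not tested.

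In the seminal receptacle the median log2 fold change at 6 h was 0.88 and 36 of 38 values were positive, the exceptions being Non1 and CG4364 (-0.04 ± 0.22). By edgeR 0 genes were called (32 higher and 1 lower with an unadjusted p under 0.05, and 2 called by DESeq2), where edgeR called 0.0246% of all 8141 genes higher, 7.48% had an unadjusted p under 0.05 and a positive change, and DESeq2 called 0.737%. By the Benjamini-Hochberg rule 2 were higher, Nop56 and nop5, where 0.626% of all genes were. nop5 was at 7.44, 12.7 and 9.03 CPM unmated, 28.2, 29.6, 32.6 and 25.8 CPM at 6 h and 12.99, 14.4 and 8.80 CPM at 24 h, and its log2 fold change was 1.60 ± 0.25 (adjusted p = 0.53). Fib was at 8.71, 17.8 and 10.3 CPM unmated and 26.9, 31.4, 48.7 and 38.5 CPM at 6 h (1.59 ± 0.32, adjusted p = 1). Groups did not overlap for 28 genes, where 7.59% of all genes were above unmated in this way, and 19 genes lay below their 6 h range at 24 h, where 5.1% of all genes did. The run 1 library at 24 h had 79.0 CPM of Nop60B against 29.1 and 19.8 CPM in the run 2 libraries, and those run 2 libraries were shallow, with totals of 12177864 and 14132323 counts. At 6 h the log2 ratio of the run 2 mean to the run 1 mean also correlated with exon length (Spearman's rho = -0.84). Unmated seminal receptacle held 1 run 1 and 2 run 2 libraries, against 2 and 2 at 6 h. The part of run in single values was not tested.

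In the glandular tissues 0 genes were called at 6 h and the medians were near 0. In the spermathecae the median was 0.05, 24 of 38 values were positive and 0 were called by edgeR or DESeq2 (2 higher and 3 lower with an unadjusted p under 0.05), where 0.157% of all 7624 genes were called higher and 6.26% were higher with an unadjusted p under 0.05. By the unadjusted rule 528 of the 7624 genes were lower. Fib was at 30.8, 36.1, 31.0 and 28.2 CPM unmated and 24.4, 29.9, 38.6 and 31.7 CPM at 6 h, so the groups overlapped. The 6 h range was above the unmated range for 2 genes, CG12301 and CG7637, where 4.88% of all genes were, and below it for 3, Non1, CG4364 and CG4038, where 5.59% of all genes were. CG4038 went from 12.0, 15.3, 12.5 and 11.3 CPM to 8.90, 8.08, 6.67 and 7.16 CPM (log2 fold change -0.72 ± 0.21, adjusted p = 1). Summed fat body markers in the spermathecae were 11550 to 21170 CPM unmated, 6202 to 13280 CPM at 6 h and 12990 to 21290 CPM at 24 h. Their part in the spermathecae values, those of Non1 included, was not tested. In the parovaria the median was 0.12, 0 were called by edgeR or DESeq2 (5 with an unadjusted p under 0.05), where 0.0687% of all 7277 genes were called higher and 5.41% were higher with an unadjusted p under 0.05, and 10 genes lay above their unmated range, where 14.6% of all genes did. Fib in the parovaria was at 22.4 to 28.6 CPM unmated and 37.2, 35.4 and 30.3 CPM at 6 h (0.36 ± 0.20, adjusted p = 1). One of the parovaria libraries at 24 h (run 2) had a mitochondrial share of 0.306% where the others of the tissue had up to 5.47%.

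In unmated fat body the mean level was the highest of the 6 tissues for 27 of the 38 genes and the lowest for 4. The largest fat body values at 6 h belonged mostly to other genes than in the bursa. Of these, CG8545, Nopp140 and Mys45A started from unmated means of 2.81, 5.98 and 4.39 CPM. Of the 38 genes 36 were tested there, since CG12301 and CG12325 did not exceed 2 CPM before TMM scaling in 2 libraries of a time point. On the TMM scale, which raises levels in this tissue, CG12325 was at 0.483 to 3.23 CPM unmated and 4.19 to 9.67 CPM at 6 h, and CG12301 at 0.603 to 1.13 and 1.53 to 4.10 CPM, with no test. The median at 6 h was 0.27 and 29 values were positive. By edgeR and by DESeq2 0 were called (7 with an unadjusted p under 0.05), where 0.0176% of all 5677 genes were called higher and 11% were higher with an unadjusted p under 0.05. The largest values were 2.097 ± 0.46 for CG8545, 1.85 ± 0.39 for Nopp140, 1.60 ± 0.35 for Mys45A and 1.11 ± 0.32 for Nnp-1, and Nopp140 alone passed the Benjamini-Hochberg rule (adjusted p = 0.045), where 1.57% of all genes did. The box C/D and H/ACA genes did not lead here: Fib was at 123, 104, 174 and 109 CPM unmated and 94.2, 213 and 228 CPM at 6 h (0.52 ± 0.33), and all 3 NHP2 libraries at 6 h lay below its unmated range, with 47.0 to 59.4 CPM unmated and 37.95, 43.3 and 33.4 CPM at 6 h (-0.41 ± 0.20, adjusted p = 1). The 6 h range was above the unmated range for 7 of 36 genes, where 6.68% of all genes were, and the 24 h range was below the 6 h range for 17, where 23.7% of all genes were. No run 1 library was made of the fat body at 24 h, against 2 in unmated fat body and 1 at 6 h.

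At 24 h, outside the bursa, edgeR called 0 of the 38 genes against 6 h and 0 against unmated in any tissue, and DESeq2 called 7 lower against 6 h in the oviduct, where it called 1.02% of all genes lower, and 0 elsewhere. Against 6 h the median change was -1.15 in the oviduct (36 lower with an unadjusted p under 0.05, against 9.11% of all genes), -0.66 in the seminal receptacle (22 lower, against 5.13%), -0.45 in the fat body (12 lower, against 11%) and -0.18 in the parovaria (8 lower, against 4.53%), and 0.15 in the spermathecae (4 higher, against 599 of all 7624 genes). Against unmated the lowest median was -0.25, for oviduct, and the highest was 0.28, for seminal receptacle. With an unadjusted p under 0.05, 4 genes were lower for oviduct, where 206 of all 7814 genes were. For seminal receptacle 1 was higher, against 188 of all 8141, and for fat body 3 were lower, against 441 of all 5677. For parovaria 2 were lower, against 251 of all 7277, and for spermathecae 5 were higher, against 487 of all 7624. Single values ranged more widely than the medians, from -1.62 (l(3)72Dn) to 0.70 (Nopp140) in the fat body, -0.33 (Non1) to 1.21 (Nop60B) in the seminal receptacle, -0.81 (l(3)72Dn) to 0.25 (vito) in the oviduct, -0.13 (Non1) to 0.85 (CG12301) in the spermathecae and -0.62 (Non1) to 0.18 (CG1789) in the parovaria. All fat body libraries at 24 h were of run 2, and the part of run in the single fat body values was not tested.

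**Figure D4:**
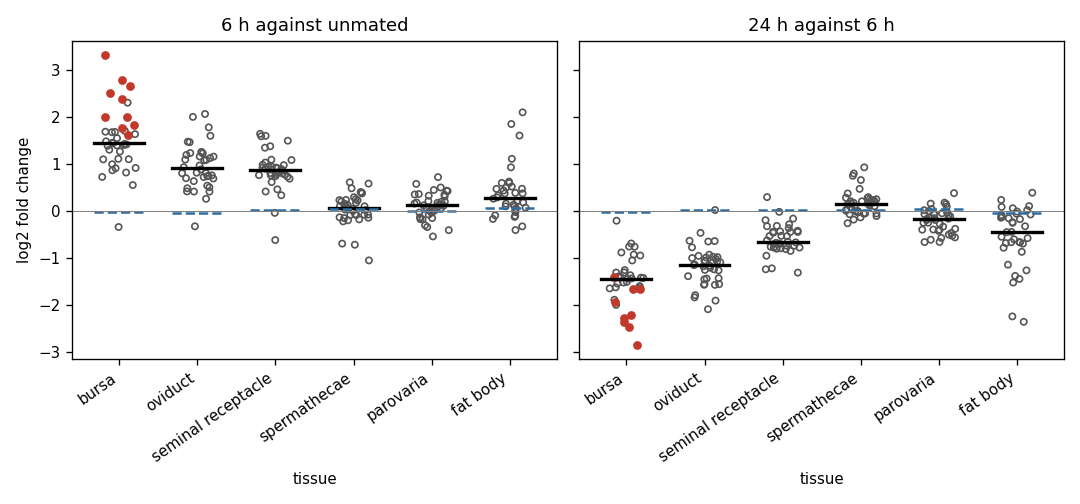
Fitted log2 fold changes of the 38 genes (36 in the fat body) in each tissue at 6 h against unmated (left) and 24 h against 6 h (right), with filled red points for called genes, a black line at their median and a dashed blue line at the median of all genes tested. The median at 6 h is 1.44 for bursa, 0.91 for oviduct, 0.88 for seminal receptacle, 0.05 for spermathecae, 0.12 for parovaria and 0.27 for fat body.

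Whether the tissues differed in their change at 6 h was tested directly, in a fit of all 62 tissue libraries over the 5388 genes expressed in all 6 tissues, 36 of the 38 among them. The bursa change exceeded that of the spermathecae for 12 genes (1.41% of all genes), that of the parovaria for 6 (0.65%) and that of the fat body for 11 (1.34%), and in each of the 3 comparisons 0 were lower (0, 0 and 1 with an unadjusted p under 0.05). Fib, Nop56, nop5, Nop60B and CG6712 were called in all 3. For Fib the bursa change was larger by 3.22 ± 0.35 than in the spermathecae (adjusted p = 2.48e-08), by 2.83 ± 0.37 than in the parovaria (adjusted p = 4.09e-06) and by 2.72 ± 0.37 than in the fat body (adjusted p = 1.07e-05). These comparisons share the bursa libraries. Against the oviduct and the seminal receptacle, 0 genes were called by edgeR (12 and 17 higher with an unadjusted p under 0.05, 0 lower), where 0.0186% and 0.0928% of all genes were called higher. Those unadjusted counts stand beside 3.08% and 4.92% of all genes. By the Benjamini-Hochberg rule the bursa change was larger than that of the seminal receptacle for 4 genes, Fib, Nop56, nop5 and CG3527, where 0.687% of all genes were, and than that of the oviduct for 0. The median difference was 0.62 in either case.

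The mean change of the 3 epithelial tissues exceeded that of the 2 glandular tissues for 11 of the 36 genes, where 1.08% of all genes did, and fell short of it for 0. They were Fib (2.05 ± 0.24), nop5 (1.92 ± 0.18), Nop60B (1.69 ± 0.25), l(1)G0020 (1.61 ± 0.27), Nop56 (1.59 ± 0.18), CG4038 (1.25 ± 0.18), CG1542 (1.09 ± 0.19), NHP2 (1.00 ± 0.18), vito (1.00 ± 0.17), CG1671 (0.98 ± 0.17) and CG6712 (0.93 ± 0.15). Fib, Nop56 and nop5 of the box C/D particle and 3 of the 4 H/ACA proteins were among them. All 36 differences were positive, also that of Non1 (0.27), whose own changes were negative in all 6 tissues.

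Before mating, levels were mostly higher in the glandular than in the epithelial tissues. In unmated females the mean level was highest of the 5 tract tissues in the spermathecae for 27 genes, in the parovaria for 8, in the oviduct for 2 and in the bursa for 1, and it was lowest in the bursa for 29 and in the seminal receptacle for 7. In the fit of the 18 unmated tract libraries, 11 genes were called higher in glandular than in epithelial tissues and 0 lower (31 higher and 0 lower with an unadjusted p under 0.05), where 12.5% of all 8452 genes were called higher and 34.5% were higher with an unadjusted p under 0.05. They were nop5 (1.43 ± 0.10), Fib (1.35 ± 0.14), Nop60B (1.21 ± 0.16), CG4364 (1.18 ± 0.07), CG1671 (1.06 ± 0.09), Non1 (1.02 ± 0.08), CG13096 (1.02 ± 0.13), Nop56 (1.01 ± 0.12), CG5033 (0.89 ± 0.07), CG7728 (0.85 ± 0.10) and pit (0.73 ± 0.09). The median was 0.49 over the 38 genes and -0.06 over all genes. For nop5 the 4 unmated libraries were at 25.1, 29.7, 23.8 and 24.1 CPM in the spermathecae and at 25.6, 25.8, 26.9 and 22.8 CPM in the parovaria, above all 10 unmated epithelial libraries (6.36 to 12.7 CPM). The 6 h bursa libraries (35.5 to 56.1 CPM) were above all of these glandular libraries, a comparison of values with no test. Markers of other cell types moved with this contrast: 12 of 12 muscle and 7 of 9 hemocyte markers were called lower in the glandular tissues (medians -3.66 and -3.57) and 4 of 11 tested fat body markers higher (median 1.07), and their part in these differences was not tested. This contrast uses the unmated bursa libraries that the 6 h comparison also uses.

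Per kilobase of exon, the scale on which genes can be compared with each other, Non1, CG4364 and CG7637 were the most abundant of the 38 in each of the 6 unmated tissues. In the bursa their means were 115.6, 41.6 and 30.6 CPM per kb, against a median of 4.34 over the 38 genes and 0.462 for l(1)G0020, the lowest. Non1 and CG4364 differed most between tissues in absolute terms: Non1 was at 263.2 ± 20.9 CPM (SD, n = 4) in unmated bursa, 383.2 ± 54.1 in spermathecae, 711.8 ± 45.1 in parovaria and 1135 ± 152 in fat body, and CG4364 at 88.4 ± 9.08, 166.9 ± 20.9, 257.2 ± 18.7 and 442.9 ± 46.5 CPM. The parovaria and fat body libraries of either gene did not overlap each other or the bursa. In the whole female Nop60B was the most abundant per kilobase, at 150.4 CPM per kb.

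Against the whole female, a gene was called at an adjusted p of at most 0.001 with a log2 fold change of at least 2 in size. In unmated bursa Nop60B (-5.05 ± 0.23, adjusted p = 3.4e-04) and mbm (-4.15 ± 0.20, adjusted p = 6.15e-04) were called lower, where 1.45% of all 8916 genes were. Nop60B was at 438 and 588 CPM in the whole female and mbm at 65.6 and 84.1 CPM, against 12.99 to 18.2 and 3.53 to 4.61 CPM in the bursa. In the parovaria Nop60B alone was called lower (-3.65 ± 0.18, adjusted p = 7.36e-04), where 0.925% of all genes were. In the oviduct, seminal receptacle, spermathecae and fat body edgeR called 0 genes lower, with 27, 28, 24 and 18 at a negative change and an unadjusted p under 0.05 (36.9%, 37.1%, 38.8% and 44.7% of all genes). No gene was called higher in any tissue. In each tissue 1 to 7 had a positive change and p under 0.05, against 2516 of 8241 genes (fat body) to 3153 of 8916 (bursa). The median over the 38 genes was negative in each tissue, from -1.75 in the bursa to -0.58 in the fat body, where the median of all genes was itself -0.53. Mean levels were below the whole female for 28 genes in the fat body and for 29 to 35 genes in each tract tissue. CG1789 was an exception, at 5.79 and 2.33 CPM in the whole female and 8.51 to 12.6 CPM in the bursa.

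**Figure D5:**
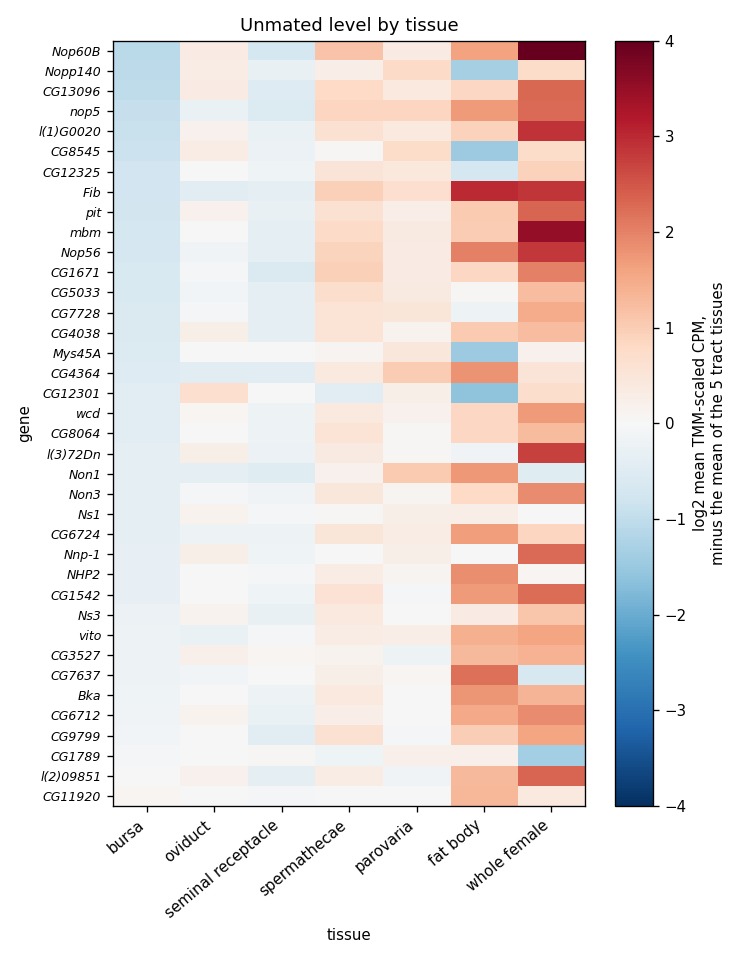
Log2 mean level of each of the 38 genes in unmated tissues and in the whole female, minus the mean of the 5 tract tissues for that gene, from blue (lower) to red (higher). The bursa column is the lowest of the 5 tract tissues for 29 genes and the whole female is highest for Nop60B, where the bursa is lower by 5.05 on the log2 scale of the fit.

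Other genes of the pathway were counted from lists written for this comparison. In the bursa at 6 h 1.03% of all genes were called higher, and the median of all genes was -0.016. Of 8 genes, 7 for subunits of RNA polymerase I and 1 for its initiation factor Tif-IA, 1 was called higher in the bursa at 6 h and 0 lower, with a median of 1.58. The called gene was Polr1C, a subunit shared with RNA polymerase III, at 4.80, 4.02, 4.22 and 5.09 CPM unmated and 13.97, 17.1, 18.7 and 17.7 CPM at 6 h (1.89 ± 0.19, adjusted p = 0.0029). The others were 1.22 for Polr1A, 1.73 for Polr1B, 1.60 for Polr1D, 1.81 for Polr1E, 1.46 for Polr1F, 1.56 for Polr1H and 0.39 for Tif-IA. Of 26 further assembly factors 7 were called higher, among them Surf6 (1.97 ± 0.13) and nclb (2.13 ± 0.21), with a median of 1.42, and at the ends were U3-55K (2.30 ± 0.28) and Nop17l (-1.28 ± 0.24). Of 11 exosome genes, which trim the precursor, edgeR called 0, with a median of 1.49 and values from -0.20 (Rrp6) to 2.11 (Ski6).

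Genes for proteins of the finished ribosome were counted in the same way. Of 85 cytoplasmic ribosomal protein genes tested in the bursa at 6 h, 1 was called higher, where 1.03% of all genes were. Their median was 0.40, against -0.016 over all genes. The called gene was RpLP0-like (1.84 ± 0.18, adjusted p = 0.0025), whose yeast and human counterparts are assembly factors and not part of the finished ribosome. The 71 mitochondrial ribosomal protein genes had a median of 0.54 and 0 calls. In unmated glandular against epithelial tissues, 58 of 85 cytoplasmic ribosomal protein genes were called higher and 0 lower (median 0.94), where 12.5% of all genes were higher. Of the 71 mitochondrial ones 11 were called lower and 0 higher (median -0.64), a share near the 16.3% of all genes called lower.

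Myc itself varied too much between libraries for a call. In the bursa it was at 0.955, 6.65, 6.49 and 5.03 CPM unmated, 9.80, 1.37, 30.0 and 32.5 CPM at 6 h and 6.55, 2.76, 18.1 and 0.583 CPM at 24 h. The 2 high values at 6 h were those of run 2, and 1 of the run 1 libraries lay inside the unmated range. Its log2 fold change was 1.97 ± 1.02 (adjusted p = 1). In the oviduct its highest library was the run 1 library at 24 h, with 123.9 CPM against 1.83 to 17.5 CPM in the other 7. Max, the partner of Myc, had a log2 fold change of -0.19 ± 0.20 in the bursa at 6 h, bigmax -0.41 ± 0.22 and Mondo -0.56 ± 0.29, and Mnt was not tested for low counts.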

How the data were processed

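The deposited table holds raw read counts per gene, as the authors made them with HISAT2 2.1.0 and StringTie from reads mapped to the FlyBase release 6 genome. Its name says CPM, but the values are whole numbers with a different total in each library. Counting by strand is not given in the sources used here, so reads of overlapping genes cannot be told apart. Of the library columns, 14 in 6 groups were assigned to a group and not to a single sample. A gene was tested when 2 or more libraries of any time point exceeded 2 CPM before TMM scaling, with edgeR 4.0.16 in R 4.3.3 (TMM, quasi-likelihood, no covariate), in each tissue or over all tissues for differences between changes. Since the main fits had no covariate, their p-values measure the spread between pools together with any difference between the 2 runs. P-values were adjusted over all genes of a test. Levels are TMM-scaled CPM with SD over libraries. Alternatives were other scalings, DESeq2 1.42.0, no filter, the run, the replicate number as a block and each library left out. The fits were also run on simulated counts with 200 changed genes. Those counts held no effect of run or gene length, and the outcome is not given here. Bursa values are given in every library for the 7 core snoRNP proteins among the genes, the 3 PeBoW genes, pit and the 3 largest and 3 smallest bursa changes. All genes and lists were chosen with earlier results of these data known. Sequences and promoters were not analysed here.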

Additional observations from a re-analysis of the deposited data

Results flagged for a closer look

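The test for a sample that stands apart was run on 14 values (the median level of the 38 genes and 13 genes) in each of 10 groups of 4 libraries, and 4 of the 140 were marked, where chance marks about 1 in 20. CG4364 was at 101.8 CPM in the run 2 library 1 of unmated bursa against 82.7 to 85.9 CPM in the other 3. In spermathecae at 24 h the run 1 library 2 had 263.6 CPM of CG4364 against 129.6 to 149.2 CPM and 590.7 CPM of Non1 against 236.3 to 295.5 CPM. In parovaria at 24 h the median level of the 38 genes was 12.5 CPM (12.48) in the run 1 library 2 against 9.17 to 9.59 CPM.

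The change at 6 h differed between tissues by the test of the difference itself for 12 genes between bursa and spermathecae, 6 between bursa and parovaria, 11 between bursa and fat body and 11 between epithelial and glandular tissues, in each case with the larger change in the first named.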

How the results depend on the processing

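Fitted changes kept their sign for every called gene under every alternative run, and the counts of calls moved. In the bursa at 6 h, 10 genes higher became 36 with the Benjamini-Hochberg rule, 27 with DESeq2, 18 with the run as covariate (37 with both that and the Benjamini-Hochberg rule), 1 with library size alone and 0 in run 1 or run 2 alone. From 6 h to 24 h, 9 lower became 34, 24, 17, 37, 1, 0 and 0 in the same order. With library size alone the median of all genes was -0.23 at 6 h and that of the 38 genes 1.31. Of all genes, 1.03% were higher at 6 h as reported and 13.9% by the Benjamini-Hochberg rule. Shares of all genes under the other bursa alternatives, and under the run covariate or single runs in any tissue, are not given here. Those counts are therefore not set against all genes here. Leaving out 1 library each gave 2 to 8 genes at 6 h, with 2 without unmated run 1 library 1 or unmated run 2 library 2, and 2 to 7 from 6 h to 24 h, with 2 without 24 h run 1 library 1. These fits have fewer samples. Whether the replicate numbers pair the libraries was not settled. Same-numbered bursa libraries correlated at 0.04 to 0.78 (median 0.33) and spermathecae libraries at -0.01 to 0.74 (median 0.26). Other-numbered libraries of the same run had medians of 0.24 and 0.15. In the other tissues the same-numbered median was the lower of the 2. With the replicate block 11 bursa genes were higher at 6 h and 11 lower from 6 h to 24 h, with 0 in the spermathecae. The block could not be fitted in the seminal receptacle and fat body.

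In the oviduct at 6 h, 0 became 9 (Benjamini-Hochberg), 8 (DESeq2), 8 (run and Benjamini-Hochberg) and 0 to 2 on leaving out a library, 2 without 24 h run 1 library 1. From 6 h to 24 h it became 7, 7, 12, 2 in run 2 alone, and 0 to 1. In the seminal receptacle 0 became 2, 2 and 16 at 6 h and 2 (run and Benjamini-Hochberg) from 6 h to 24 h. In the fat body 0 became 1 (Benjamini-Hochberg), 2 (run) and 7 (both) at 6 h and 1 (both) later. In the spermathecae 0 lower became 1 and 3 at 6 h, and 0 higher became 2 later. Differences between bursa and spermathecae went from 12 to 25 (Benjamini-Hochberg) and 7 (run 2 alone), parovaria from 6 to 25 and 12 (run as covariate), fat body from 11 to 21 and 4 (run 2), seminal receptacle from 0 to 4, and epithelial against glandular from 11 to 27 and 6 (run 2). Glandular against epithelial levels went from 11 to 30 and to 8 to 14 on leaving out a library. Against the whole female the Benjamini-Hochberg rule gave 16 lower in bursa, 5 in oviduct, 15 in seminal receptacle, 5 in spermathecae, 9 in parovaria and 4 in fat body, with 2 higher there, and run 2 alone gave 0 in bursa and parovaria. Of the Benjamini-Hochberg counts between tissues and against the whole female, a share of all genes is given above only for bursa against seminal receptacle. The others are not set against all genes here. Apart from the sample numbers the cause of these shifts was not tested. Plain library size, run 1 alone and the run with the Benjamini-Hochberg rule were chosen after seeing the data.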
